A study of Rattus norvegicus with 9 samples.

Results

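The tibias of rats that had lost their ovaries and then climbed a weighted ladder were compared here with the tibias of sham-operated rats that had kept their ovaries. The comparison takes 3 rats of the RE/Ovx group and 3 of the Sham group, 6 of the 9 rats sequenced, and runs across all genes of the count files: 22589 genes were listed, 18423 had a count in any rat, and 14520 had enough counts to be tested. The question is which genes and which cell types still differed from Sham after the exercise. The remaining 3 rats, the NE/Ovx group, were ovariectomized and did not exercise, and their values stand beside those of the other groups for orientation.

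All animals were female Sprague-Dawley rats, operated on at 10 weeks of age and killed 24 weeks later. Sham rats lost only a little fat from beside the ovary, while NE/Ovx and RE/Ovx rats lost both ovaries. RE/Ovx rats also spent 2 weeks getting used to the ladder and then trained for 12 weeks on 5 days a week, with a weight at the base of the tail that ended at 100% of body weight. Sham rats did not climb, and no exercised Sham group was sequenced, so in this comparison the loss of the ovaries and the training cannot be told apart. Each library holds RNA of 1 left tibia cleaned of skin, muscle, ligament and tendon, with its bone, cartilage and marrow together. The bone label fits the markers: Col1a1, the main chain of bone collagen, stood at 5239 to 7466 CPM (counts scaled to a common library size) in Sham rats, and 20 of the osteoblast genes listed had enough counts to be tested. In such a mixture, fewer cells of a type and less RNA per cell cannot be told apart.

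Ovarian estrogen restrains bone remodelling. After its loss, osteoclasts, the cells that dissolve bone, and osteoblasts, the cells that lay it down, are both known to become more active, with resorption ahead. The marrow inside the bone also changes in this model: fat cells accumulate, and the early B lymphocytes that mature there, which estrogen holds back, expand. Neutrophils, the most abundant white cells of rodent marrow, are made in the same space and carry their enzymes in granules whose genes are switched on one after another as the cells mature.

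Total counts lay between 12297992 and 15123988 in Sham rats (median 12492426) and between 12967456 and 14946389 in RE/Ovx rats (median 14762243). The first principal component of log2 CPM held 34.0% of the variance over the 9 rats. On it the Sham rats lay at -35.2, -30.7 and -37.7 (rats 12, 7 and 8) and the NE/Ovx rats between 9.5 and 15.1. RE/Ovx rats 5 and 8 lay beyond them at 32.5 and 30.9, whereas RE/Ovx rat 3 lay at 2.4. Genes of skeletal muscle, a tissue that had been cleaned away, varied between rats of 1 group: the 29 muscle genes tested summed to 19892, 15583 and 6609 CPM in Sham rats 12, 7 and 8, and to 9196, 12427 and 8189 CPM in RE/Ovx rats 3, 5 and 8. Sham rat 12 stood apart in its B cell genes, and results that rest on it are given with and without it.

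At a Benjamini-Hochberg adjusted p under 0.05 in edgeR's quasi-likelihood test, 1171 of the 14520 genes differed between RE/Ovx and Sham rats (8.06%). Of these, 726 were higher in RE/Ovx rats (5%) and 445 lower (3.06%). The genes called higher had changed more: their median log2 fold change was 0.93 against -0.57 for those called lower, and 329 of them against 34 moved by over 1 on the log2 scale. The smallest adjusted p was 0.000335. In 1160 of the 1171 called genes the values of RE/Ovx and Sham rats did not overlap, so a lack of overlap adds little to a call. The median of all tested genes was -0.01. With library totals in place of TMM factors the split was 891 higher and 289 lower. Under the thresholds of the study's methods (unadjusted p under 0.05 with a fold change over 1.2 or under 0.83), 3363 genes passed (23.2%), 2031 of them higher (14%) and 1332 lower (9.17%).

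The count depended on which rats were included. It was 103 without RE/Ovx rat 5, 103 without RE/Ovx rat 8 and 1749 without RE/Ovx rat 3, and 767, 601 and 847 without Sham rat 12, 7 or 8. The calls made in every one of these 6 fits numbered 85, of which 64 were higher and 21 lower. With the muscle level of each rat as a covariate, chosen after the data were seen, 702 genes were called, and 614 of the 1171 were among them with the same sign.

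Against the ovariectomized rats that had not exercised, 0 genes (0%) passed the adjusted threshold in edgeR (smallest adjusted p 0.537), and 767 genes (5.28%) had an unadjusted p under 0.05. NE/Ovx rats against the same Sham rats gave 178 calls (1.23%). Because both ovariectomized groups are set against the same 3 Sham rats, their fold changes are given side by side only. The 726 genes called higher in RE/Ovx had a median log2 fold change of 0.75 in NE/Ovx against Sham, and the 445 called lower had one of -0.35.

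**Figure D1:**
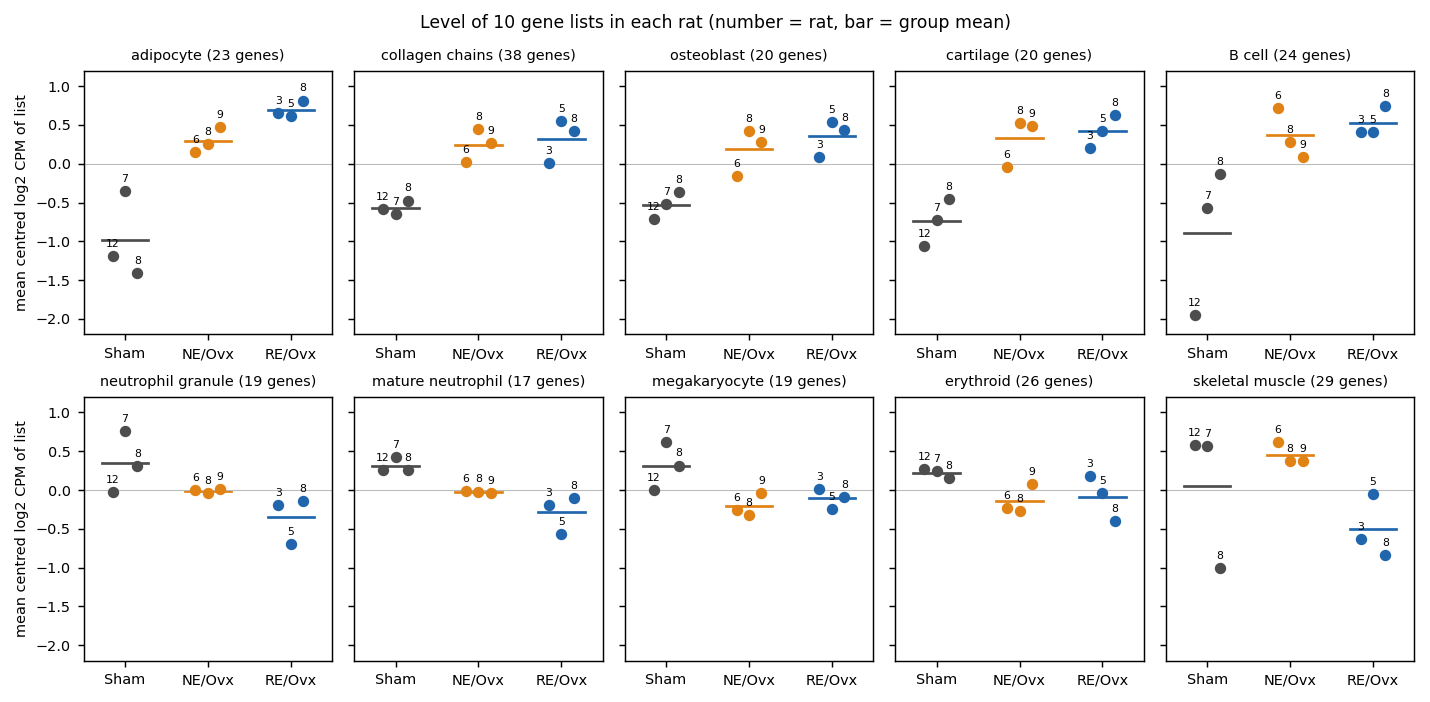
Levels of 10 lists by rat, as the mean over the list's tested genes of log2 CPM centred on each gene's mean over all rats (vertical axis), by group. Points are rats with their numbers and bars are group means. Adipocyte, collagen, osteoblast, cartilage and B cell genes are higher in all 3 RE/Ovx rats than in all 3 Sham rats, and both neutrophil lists are lower in all 3. Skeletal muscle genes overlap because Sham rat 8 lies below the RE/Ovx rats while the other Sham rats lie above them.

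In the following, values per rat are CPM in the order Sham rats 12, 7 and 8 and RE/Ovx rats 3, 5 and 8. Fold changes are log2 RE/Ovx against Sham with their standard error from the fit, n = 3 rats a group, and an adjusted p is from edgeR's quasi-likelihood test over all 14520 genes. The number of calls in each list is to be read beside the shares of all tested genes, 5% called higher and 3.06% called lower.

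Fat cell genes showed the largest differences. Of the 23 adipocyte genes tested, 16 were higher in RE/Ovx rats and 0 lower, against 5% and 3.06% of all genes, and their median log2 fold change was 1.43. Plin1, which coats the lipid droplet and gates its breakdown, stood at 6.83, 9.97 and 6.45 CPM in Sham rats and at 70.7, 108 and 111 CPM in RE/Ovx rats. The lowest exercised rat was far above the highest Sham rat. Its log2 fold change was 3.63 ± 0.25 (adjusted p = 0.000335), and the NE/Ovx rats, at 46.9, 73.2 and 63.8 CPM, lay above all Sham rats and overlapped the exercised ones.

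The adipocyte hormones rose with it. Adipoq, which encodes adiponectin, was at 8, 19.8 and 4.84 CPM in Sham and at 79.1, 84.4 and 111 CPM in RE/Ovx rats (3.05 ± 0.40, adjusted p = 0.00723). Lep, the appetite-restraining hormone leptin, was at 0.25, 1.31 and 0.645 CPM in Sham and at 4.91, 5.65 and 8.74 CPM in RE/Ovx rats (3.08 ± 0.47, adjusted p = 0.0113). In neither gene did the groups overlap, which was a condition for naming the genes with the largest fold changes. Pparg, the transcription factor that drives fat cell formation, moved less, from 8.91, 11.6 and 9.51 CPM to 21.6, 21.9 and 21.5 CPM (1.11 ± 0.14, adjusted p = 0.00622). Cebpa, another factor of the same programme, stood at a log2 fold change of -0.15 and did not pass.

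Genes of the fat cell's chemistry followed. Lipe, the hormone-sensitive lipase that releases fatty acids, was at 23.3, 24.1 and 19.8 CPM in Sham and at 57.8, 69.4 and 78.8 CPM in RE/Ovx rats (1.61 ± 0.16, adjusted p = 0.00248). Aqp7, the channel through which glycerol leaves the fat cell, rose by 3.68 ± 0.57 on the log2 scale and Pck1, which makes glycerol phosphate for new triglyceride, by 3.06 ± 0.42. Among the genes called higher with the largest fold changes were also Slc7a10, an amino acid transporter of white fat cells (1.33, 1.31 and 1.93 CPM against 18.5, 16.4 and 14.3), Lgals12, a galectin of the lipid droplet (3.88 ± 0.32), and Acvr1c, the activin receptor ALK7 of fat cells (2.93 ± 0.36). Gys2, known as the glycogen synthase of liver and fat, rose by 3.25 ± 0.32, and Klb, the co-receptor for the hormone FGF21, by 3.12 ± 0.47. Bin2a, Ankef1 and Nnat rose by 4.16 ± 0.36, 3.78 ± 0.32 and 4.0 ± 0.65. Some of these genes were near the floor in Sham rats, so the size of their rise is uncertain. Bin2a was at 0.167, 0.344 and 0.403 CPM there and Aqp7 at 0.167, 1.58 and 0.161 CPM. The means of Klb and Gys2 were 0.383 and 0.674 CPM. Over the alternatives the log2 fold change ran from 1.52 to 4.39 for Bin2a and from 2.22 to 5.65 for Aqp7. For Klb it ran from 0.76 to 3.25 and for Gys2 from 1.53 to 3.61.

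Of the 25 genes of lipid storage and lipolysis, 9 were higher and 0 lower in edgeR, and DESeq2 called 1 lower. Of the 15 genes of fatty acid synthesis 6 were higher and 1 lower, the malic enzyme Me1 at -0.43. Neither list rose as a whole like the adipocyte genes, whose median was 1.43. The median was 0.31 in lipid storage, with 7 genes negative, and 0.28 in fatty acid synthesis, with 5 negative. Scd, the desaturase that makes monounsaturated fatty acids, was at 16.1, 39.3 and 21.4 CPM in Sham and at 253, 110 and 97.8 CPM in RE/Ovx rats, so that exercised rat 3 stood over the other two. Pnpla3, a lipase-related gene that responds to feeding, was likewise highest in rat 3 (9.69 CPM against 2.83 and 2.63). Thrsp, which promotes fatty acid synthesis, and the transcription factors Srebf1 and Mlxipl, which switch such genes on, rose by 3.38 ± 0.38, 0.85 ± 0.13 and 1.70 ± 0.32. Cholesterol synthesis did not move as a group: of 23 genes, 2 were higher and 1 lower, with a median of 0.02.

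Of the 16 adipocyte calls, 9 were made in every fit that left out a rat. Without RE/Ovx rat 5 or rat 8, 9 adipocyte genes were called, without Sham rat 12 it was 11, and without Sham rat 7, where all adipocyte markers summed to 1060 CPM against 894 and 691 in Sham rats 12 and 8, it was 17. With the muscle covariate it was 16. Lipid storage calls fell from 9 to 5 without RE/Ovx rat 5 or rat 8, and the higher calls of fatty acid synthesis fell to 4 without rat 5 and to 3 without rat 8, while Me1 was not called in either fit. Several genes stand in more than 1 of the fat lists.

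**Figure D2:**
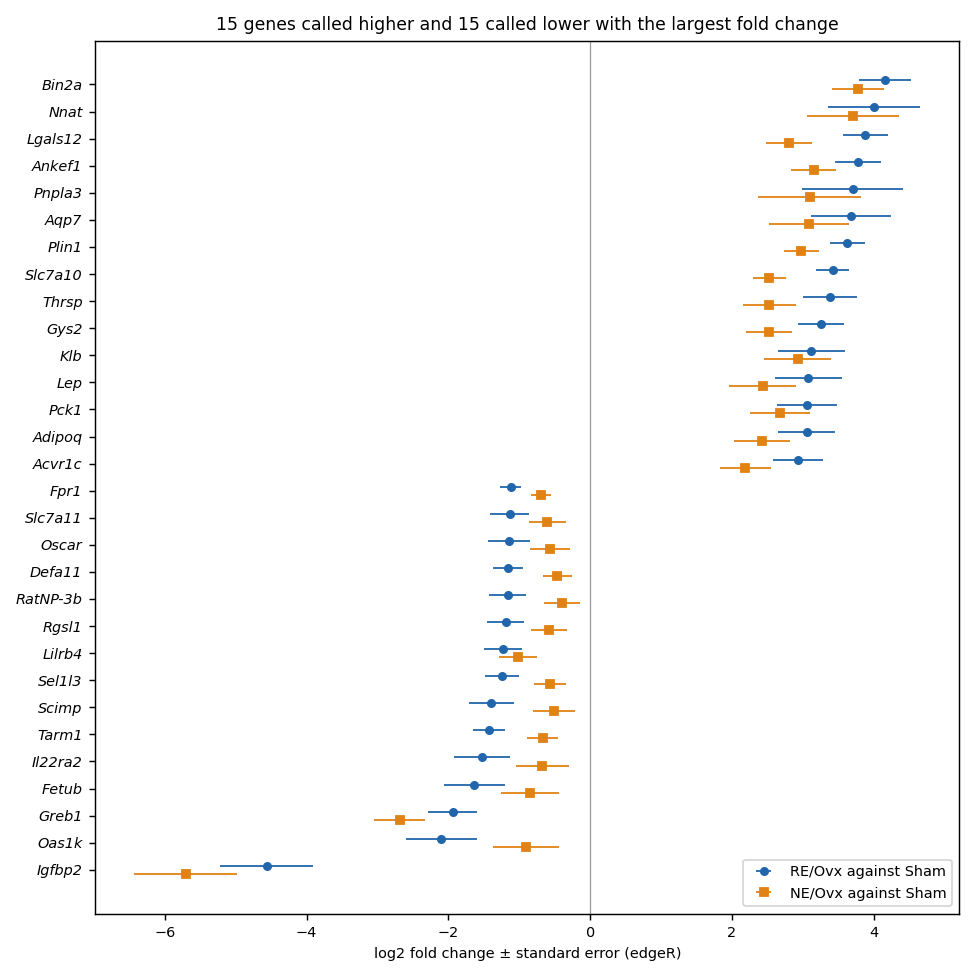
Log2 fold change with its standard error (horizontal axis) of the 15 genes called higher and the 15 called lower with the largest fold changes among named genes, for RE/Ovx against Sham (blue circles) and NE/Ovx against Sham (orange squares), n = 3 rats a group and the same Sham rats in both. Each of the 30 genes lies on the same side of zero in both ovariectomized groups; Igfbp2 and Greb1 lie farther from zero in the rats that did not exercise.

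Matrix genes formed the next group. Of the 38 genes for collagen chains tested, 13 were higher in RE/Ovx rats and 0 lower, with a median log2 fold change of 0.93. Col1a1 was at 5244, 5239 and 7466 CPM in Sham and at 15607, 25414 and 18801 CPM in RE/Ovx rats. The lowest exercised rat thus exceeded the highest Sham rat by more than the whole Sham range, and the log2 fold change was 1.74 ± 0.25 (adjusted p = 0.0102). NE/Ovx rats lay at 14462, 23781 and 19974 CPM. The partner chain Col1a2 stood at 1.55 and did not pass. The fibrillar chain Col5a2 (1.35 ± 0.19), Col11a2 of cartilage (1.55 ± 0.17) and Col22a1 of tissue junctions (1.41 ± 0.19) rose with it, as did the basement membrane chains Col4a1 and Col4a2 (1.36 and 1.34).

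The machinery that folds, trims and links collagen rose too, with 12 of 33 genes higher and 1 lower. Lox, the oxidase that starts collagen cross-links, was at 22.1, 25.9 and 18.6 CPM in Sham and at 43.5, 98.9 and 81 CPM in RE/Ovx rats (1.74 ± 0.27, adjusted p = 0.0113). Adamts2, which cuts off the end of procollagen, and Serpinf1, a secreted protein needed for normal bone mineral, rose by 1.38 ± 0.17 and 1.78 ± 0.24. The exception was Tmem38b, which lets potassium into the endoplasmic reticulum of collagen-making cells. It was at 33.7, 34.1 and 34.1 CPM in Sham and at 21.8, 22.9 and 22.5 CPM in RE/Ovx rats (-0.60 ± 0.08, adjusted p = 0.00907). Neither group spread over more than about 1 CPM, and the NE/Ovx rats stayed near Sham, at 31.2, 30.9 and 29.9 CPM.

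Of 35 other matrix glycoproteins and proteoglycans, 12 were higher and 0 lower, among them the laminin chain Lama4 (0.98 ± 0.13), the small proteoglycan Bgn (1.16 ± 0.21) and Nid1, a linker of basement membranes (0.89 ± 0.16). Of 28 matrix proteases and their inhibitors 6 were higher and 1 lower. Mmp2, a gelatinase of mesenchymal cells, was at 74.8, 76.7 and 47.6 CPM in Sham and at 106, 262 and 192 CPM in RE/Ovx rats (1.49 ± 0.31, adjusted p = 0.0219). The single fall was Mmp8, the collagenase of neutrophils, at -0.84 ± 0.18. RE/Ovx rat 3 was lowest of the 3 exercised rats for Lox, Mmp2, Col1a1 and Serpinf1. Without it 22 collagen chains and 20 of the other matrix genes were called, and without rat 5 or rat 8 these were 7 and 8 collagen chains and 1 other matrix gene in each case. Higher calls in collagen processing numbered 3 without rat 5 or rat 8 and 17 without rat 3, and Tmem38b was called in all of these fits. Higher calls among the proteases and inhibitors numbered 1 without rat 5 or rat 8 and 12 without rat 3, and Mmp8 was not called without rat 5, rat 8 or Sham rat 7. The muscle covariate left 13 collagen chains called.

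Genes of the bone-forming cells were among those higher. Of 20 osteoblast genes tested, 6 were higher and 0 lower, with a median of 0.91. Bglap, which encodes osteocalcin, was at 58.8, 100 and 95.5 CPM in Sham and at 243, 373 and 331 CPM in RE/Ovx rats, with no overlap (1.89 ± 0.29, adjusted p = 0.0113). Sparc, the bone matrix protein osteonectin, rose by 1.52 ± 0.25 and Bmp3, a BMP that restrains bone formation, by 1.05 ± 0.21. Not every osteoblast gene took part: Ibsp and Phospho1, which serve mineralization, stood at -0.19 and -0.21, and Runx2 and Alpl at 0.36 and 0.49, none of them past the threshold. In the fits without RE/Ovx rat 5 or rat 8, 2 osteoblast genes were called. Without rat 3 it was 10, and with the muscle covariate 6.

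Osteocytes, the cells buried in bone, gave 0 calls among 10 genes in edgeR (median 0.57), with 4 higher and 1 lower by DESeq2. The 2 with the smallest p were Ptprz1 (0.82 ± 0.25, adjusted p = 0.0705) and Pdpn (0.60 ± 0.18, adjusted p = 0.0667). Sost, the Wnt inhibitor that osteocytes secrete, stood at -0.52.

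All 20 cartilage genes tested had a positive fold change, 9 of them past the threshold, with a median of 1.15. Col11a2 was at 79.3, 92.5 and 129 CPM in Sham and at 313, 277 and 289 CPM in RE/Ovx rats (adjusted p = 0.00377). Acan, the large proteoglycan that holds water in cartilage, was at 153, 146 and 136 CPM and then at 241, 346 and 352 CPM (1.11 ± 0.16, adjusted p = 0.00994). Both were called in each of the fits that left out a rat. Chad and Lect1, further proteins of cartilage, rose by 1.32 ± 0.26 and 1.15 ± 0.24. Cartilage calls fell to 2 without RE/Ovx rat 5 or rat 8, to 5 without Sham rat 12 or Sham rat 7, and to 4 with the muscle covariate.

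**Figure D3:**
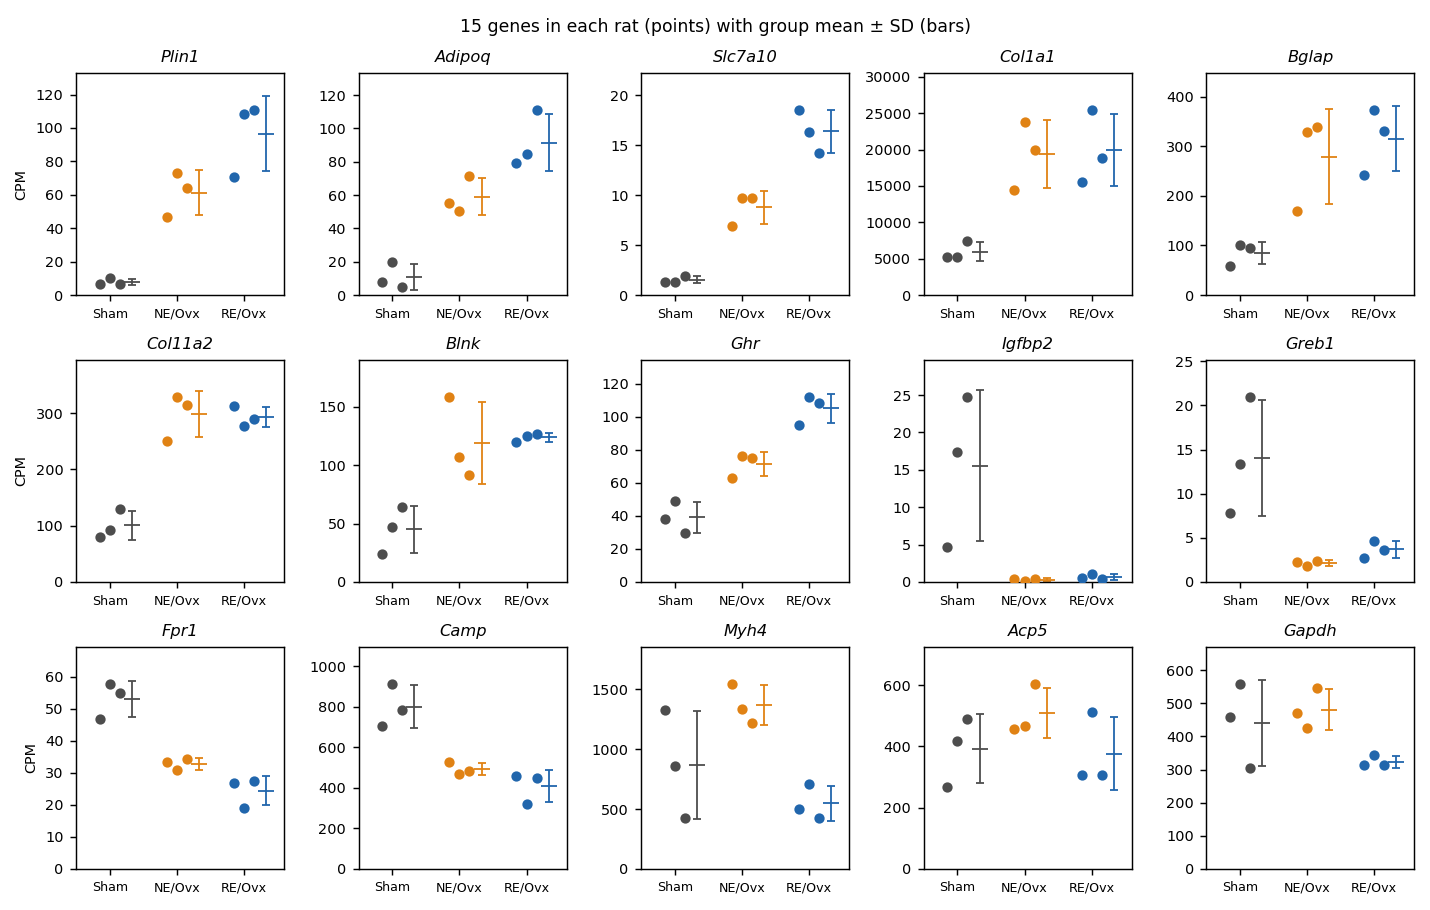
CPM of 15 genes in each of the 9 rats (vertical axes, each starting at 0), by group. Points are rats and the bars beside them are the group mean ± SD. Plin1, Adipoq, Slc7a10, Col1a1, Bglap, Col11a2, Blnk and Ghr are higher in every RE/Ovx rat than in every Sham rat, Fpr1, Camp, Igfbp2 and Greb1 are lower in every one, and Myh4 and Acp5 overlap.

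Osteoclast genes did not follow those of osteoblasts. Of 17 tested, 0 were higher and 2 lower, and their median was -0.05. Acp5, the acid phosphatase TRAP by which osteoclasts are stained, was at 269, 419 and 490 CPM in Sham and at 305, 514 and 308 CPM in RE/Ovx rats (-0.06 ± 0.25, adjusted p = 0.91), and the groups overlapped. Ctsk, the collagen-cutting protease of these cells, stood at 0.27, and Calcr, the calcitonin receptor, at 0.58 ± 0.51 (adjusted p = 0.524). The 2 that fell were Oscar, a costimulatory receptor shared with myeloid cells, and the integrin chain Itgb3, which platelets share. Oscar was at 12.6, 16.5 and 22.2 CPM in Sham and at 8.14, 5.12 and 9.89 CPM in RE/Ovx rats (-1.14 ± 0.29, adjusted p = 0.043), and Itgb3 fell by 0.40 ± 0.10 on the log2 scale. Neither was called without Sham rat 7, Sham rat 8, RE/Ovx rat 5 or RE/Ovx rat 8, nor was Oscar without RE/Ovx rat 3. Within the RANK and M-CSF signals that build osteoclasts, 2 of 22 genes were higher and 2 lower. Tyrobp, a signalling adaptor of myeloid cells, fell by 0.63 ± 0.10, and Lgr4, also a receptor for RANK ligand, rose by 0.59 ± 0.11. Of these 22 genes, 0 were called without RE/Ovx rat 5 or rat 8. Fos and Fosb stood at 0.04 ± 0.39 and 0.24 ± 0.70 with adjusted p of 0.969 and 0.878. The study singled out these genes, Acp5 and Calcr from other contrasts. It reported changes in NE/Ovx against Sham that went the opposite way in RE/Ovx against NE/Ovx, also by RT-qPCR. The values here, of RE/Ovx against Sham, do not test that report.

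Growth and signalling genes of the stroma gave a mixed account. Of 24 genes of the IGF and growth hormone axis, 5 were higher and 2 lower. Without RE/Ovx rat 5 it was 2 and 1, and without rat 8 it was Ghr alone. Ghr, the growth hormone receptor, was at 38.3, 49 and 29.7 CPM in Sham and at 95.1, 112 and 108 CPM in RE/Ovx rats (1.43 ± 0.17, adjusted p = 0.00418). The growth factor Igf1 rose by 0.83, its docking protein Irs1 by 0.89 ± 0.14 and the binding protein Igfbp7 by 1.02 ± 0.23.

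Igfbp2, another binding protein for IGFs, moved the other way and furthest of all named genes that fell. It was at 4.67, 17.3 and 24.7 CPM in Sham and at 0.471, 1.07 and 0.45 CPM in RE/Ovx rats. Its Sham values spread over a wide range, yet the lowest was above every exercised rat. The log2 fold change was -4.56 ± 0.65 (adjusted p = 0.0093, and 0.0516 without RE/Ovx rat 8), against -5.70 ± 0.73 in NE/Ovx rats, which lay at 0.367, 0.0692 and 0.424 CPM.

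Among 21 genes that respond to or carry the estrogen signal, 3 were higher and 1 lower. Greb1, a classical estrogen-induced gene, was at 7.83, 13.3 and 21 CPM in Sham and at 2.76, 4.66 and 3.6 CPM in RE/Ovx rats (-1.94 ± 0.34, adjusted p = 0.0151). NE/Ovx rats lay lower still, at 2.28, 1.8 and 2.42 CPM, although no gene separated the exercised from the unexercised rats past the adjusted threshold. Pgr, the progesterone receptor and in many tissues also estrogen-induced, was higher in RE/Ovx rats (1.44 ± 0.37, adjusted p = 0.0436), as were Ccnd1, which starts the cell cycle (0.69 ± 0.13), and Igfbp4 (0.64 ± 0.15). The receptor Esr1 stood at 0.64 and did not pass. Without RE/Ovx rat 5 or rat 8 none of the 21 was called, with adjusted p up to 0.0625 for Greb1.

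Of 43 Wnt pathway genes tested, 11 were higher and 0 lower, with a median of 0.69. They included the co-receptor Lrp5, which sets bone mass (0.72 ± 0.12), the R-spondin receptor Lgr4 (0.59 ± 0.11), the target Wisp1 (1.26 ± 0.24), the ligand booster Rspo2 (2.08) and, in the other sense, the secreted inhibitors Sfrp1, Sfrp2 and Wif1 (0.99, 1.31 and 1.21) and Nkd2 (0.72 ± 0.11). Axin2, the general readout of the canonical pathway, stood at 0.01 and did not pass. Of 49 genes of the TGF-beta and BMP pathway 8 were higher and 2 lower. Smad1, Smad6 and Id3, which carry, restrain and read out BMP signals, rose by 0.67 ± 0.11, 1.01 ± 0.17 and 0.70 ± 0.13, and Inhba, the activin subunit, fell by 0.57 ± 0.10. Without RE/Ovx rat 5 or rat 8 there were 0 Wnt calls, and in the TGF-beta and BMP list 0 without rat 5 and 1 without rat 8. Without rat 3 there were 16 Wnt genes called higher, and 21 higher and 2 lower in the TGF-beta and BMP list.

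In other cells of the stroma and vessels the counts were smaller: 4 of 19 marrow stroma genes were higher, led by Pdgfra, the receptor that marks mesenchymal progenitors (0.89 ± 0.17), 2 of 19 endothelial genes, Pecam1 (0.62 ± 0.16) and the angiopoietin receptor Tek (0.46 ± 0.09), and 3 of 13 genes of smooth muscle and pericytes, led by Mcam (1.34 ± 0.19). None of these lists had a gene called lower. Without RE/Ovx rat 5 or rat 8, Mcam alone was called among the 3 lists. Genes of mechanosensing, 28 in number, gave 2 higher, the gap junction gene Gja1 (1.08 ± 0.20) and Amotl2 (0.88 ± 0.19), and 2 lower, the focal adhesion genes Zyx (-0.42 ± 0.09) and Vcl (-0.32 ± 0.08). These became 0 and 0 without RE/Ovx rat 5 or rat 8, and 10 and 3 without rat 3. Immediate early genes gave 0 calls of 23 in edgeR, with Ctgf at 0.94 ± 0.26 (adjusted p = 0.053), and 3 higher and 2 lower by DESeq2.

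**Figure D4:**
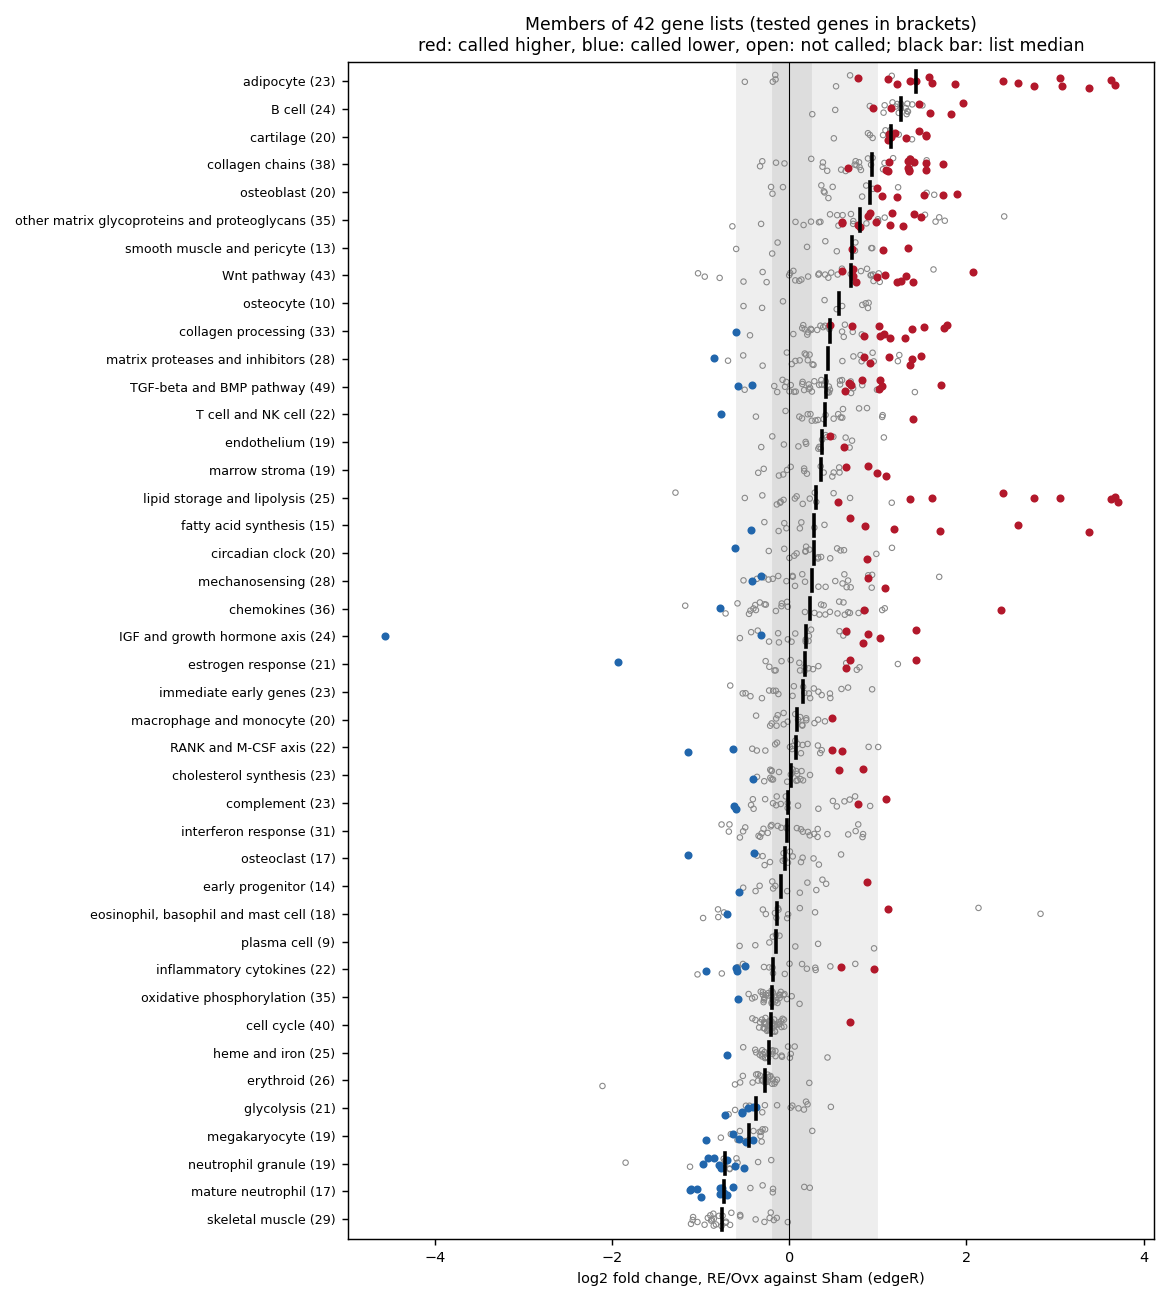
Log2 fold change, RE/Ovx against Sham (horizontal axis), of every tested member of 42 gene lists (rows, ordered by list median, number of tested genes in brackets). Filled red points were called higher, filled blue points called lower and open points not called; black bars are list medians, and the grey bands hold the middle 50% and 90% of all 14520 tested genes (from -0.19 to 0.25 and from -0.59 to 1.0). Adipocyte, B cell, cartilage and collagen genes lie highest, and muscle and both neutrophil lists lie lowest.

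In the marrow, neutrophil genes were lower. All 19 genes of neutrophil granules tested had a negative fold change, 8 of them past the threshold, with a median of -0.73. Of 17 genes of mature neutrophils, 10 were lower and 0 higher, also with a median of -0.73. Camp, the antimicrobial peptide cathelicidin of the granules made at a middle stage, was at 705, 914 and 783 CPM in Sham and at 461, 319 and 446 CPM in RE/Ovx rats. The groups did not overlap (-0.97 ± 0.15, adjusted p = 0.0117).

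Ms4a3, a marker of granulocyte and monocyte precursors, was at 177, 181 and 196 CPM in Sham and at 109, 92.5 and 118 CPM in RE/Ovx rats (-0.79 ± 0.11, adjusted p = 0.00882). Lyz2, the lysozyme of myeloid cells, was at 4244, 6354 and 4808 CPM and then at 2915, 2424 and 2831 CPM (-0.92 ± 0.17, adjusted p = 0.0166). Elane, Mpo and Prtn3, enzymes of the granules made first, stood at -0.67, -0.60 and -0.74 and did not pass.

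At the mature end, Fpr1, the receptor by which neutrophils sense bacterial peptides, was at 46.8, 57.8 and 54.8 CPM in Sham and at 26.8, 19.1 and 27.3 CPM in RE/Ovx rats (-1.12 ± 0.14, adjusted p = 0.00645). NE/Ovx rats lay between, at 33.5, 30.8 and 34.3 CPM. Cxcr2, the chemokine receptor that releases neutrophils from marrow, was at 145, 175 and 167 CPM and then at 102, 72.4 and 109 CPM (-0.78 ± 0.14, adjusted p = 0.0168). The calcium-binding genes S100a8 and S100a9 stood at -1.0 and -1.04, both past the threshold. Fpr1, Cxcr2, Camp and Ms4a3 were called in each fit that left out a rat, and they were the only genes of these lists that were. Without RE/Ovx rat 5 or rat 8 each list had 2 calls, without Sham rat 7 each had 5, and with the muscle covariate each had 6.

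Receptors and defensins of myeloid cells were among the 15 genes called lower with the largest fold changes. Tarm1, an activating receptor of neutrophils, was at 47.8, 26.7 and 37.4 CPM in Sham and at 14.1, 12.9 and 14.6 CPM in RE/Ovx rats (-1.42 ± 0.23, adjusted p = 0.0121). Lilrb4, an inhibitory receptor, was at 218, 154 and 157 CPM and then at 92.2, 81.8 and 51.3 CPM (-1.23 ± 0.27, adjusted p = 0.0255). RatNP-3b and Defa11, defensins of neutrophil granules, both had a log2 fold change of -1.16. The defensins, Lilrb4 and the antiviral gene Oas1k (-2.10 ± 0.50) belong to families with near-identical copies, between which reads may have been divided. Slc7a11, the cystine transporter, Il22ra2, a decoy receptor for IL-22, Fetub, Sel1l3 and Rgsl1 completed this group with falls from 1.13 to 1.64 on the log2 scale. None of these receptors, defensins and other genes was called without RE/Ovx rat 5 or without rat 8. Il22ra2 lost its call in each of the 6 fits that left out a rat. Over the alternatives its log2 fold change ran from -1.85 to -0.69, and that of Slc7a11 from -1.33 to -0.39.

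The promoters of genes called lower were searched for short words that transcription factors of these cells are known to prefer, in RefSeq sequence of the assembly GRCr8 from 250 bases before to 50 bases after each gene's start, on both strands. The 6 words were kept from a longer set with the calls known, and the shares are a description without a test. The word GAGGAAGT, the core that PU.1, the master factor of myeloid cells, prefers, stood in 20 of 336 promoters of genes called lower (5.95%), in 8 of 508 of genes called higher (1.57%), in 2.88% of tested genes with a promoter and in 2.62% of all promoters. The word TTNCNNAA of C/EBP factors, which act from the first granules on, stood in 135 of 336 promoters of genes called lower (40.2%). It stood in 178 of 508 of genes called higher (35%), 32.3% of tested genes and 42.7% of all promoters. By list, it stood in 20 of 27 promoters of the neutrophil genes tested (74.1%), 9 of 15 B cell promoters (60%) and 6 of 14 adipocyte promoters (42.9%). Of the other words searched, the E-box CACGTG stood in 41 of 336 promoters of genes called lower (12.2%), 31 of 508 of genes called higher (6.1%), 9.25% of tested genes and 7.08% of all promoters. The palindrome of EBF1 stood in 0 of 15 B cell promoters and 0.914% of all promoters. The word searched for PPARG, which is not a palindrome, stood in 0 of 14 adipocyte promoters and 0.437% of all. A palindrome of estrogen receptors was found in none of the promoters of called genes, and in 0.0255% of all promoters. A match is not a binding site, and no match says only that these letters are absent from the window. Only matches clear of the gene's start on its upstream side were ranked, so not all of the 20 genes were included. The 5 genes called lower with the largest fall among those ranked follow, over 60 bases each. They are written 5′ to 3′ on the gene's strand, with 1 occurrence of the word or its reverse complement in capitals.
Scimp, chr10:56026387-56026446, minus strand: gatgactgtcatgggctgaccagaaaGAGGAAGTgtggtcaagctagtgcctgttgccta
Gpr55, chr9:94060824-94060883, minus strand: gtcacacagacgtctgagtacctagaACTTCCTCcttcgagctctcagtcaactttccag
Samsn1, chr11:28021959-28022018, minus strand: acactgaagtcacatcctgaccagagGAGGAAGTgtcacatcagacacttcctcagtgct
Serpinb1a, chr17:31799384-31799443, plus strand: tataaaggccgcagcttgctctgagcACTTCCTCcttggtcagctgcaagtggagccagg
Ms4a3, chr1:217904974-217905033, minus strand: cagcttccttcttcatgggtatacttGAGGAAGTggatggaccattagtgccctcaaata

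The match begins 63 bases before the start of Scimp, an adaptor of antigen-presenting cells, 100 before that of the lipid receptor Gpr55, 48 before that of Samsn1, an adaptor of blood cells, 36 before that of Serpinb1a, an inhibitor of neutrophil elastase, and 100 before that of Ms4a3. Samsn1 holds a second, reversed match 28 bases before its start, which stands in lower case in its line. Scimp fell by 1.39 ± 0.31 on the log2 scale, and Serpinb1a, at 287, 436 and 353 CPM in Sham rats and 215, 181 and 221 CPM in RE/Ovx rats, by 0.80.

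B cell genes moved against those of neutrophils. All 24 tested had a positive fold change, with a median of 1.26, and in 21 the groups did not overlap, against 14.9% of all tested genes that were higher without overlap. Past the adjusted threshold were 6. Vpreb3 and Vpreb2, which belong to the surrogate light chain of early B cells and its assembly, rose by 1.83 ± 0.41 and 1.96 ± 0.39. Blnk, the adaptor that relays the receptor signal, was at 23.5, 46.8 and 64.4 CPM in Sham and at 119, 125 and 127 CPM in RE/Ovx rats (1.46 ± 0.31, adjusted p = 0.0237), and Cd22, an inhibitory co-receptor, rose by 0.94 ± 0.21.

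Sham rat 12 lay lowest of all 9 rats. Its 24 B cell genes summed to 393 CPM, against 894 and 1309 CPM in Sham rats 7 and 8 and 1871, 2001 and 2301 CPM in RE/Ovx rats 3, 5 and 8. Without it 8 B cell genes were called and the median stayed positive, without Sham rat 8 it was 16, and without Sham rat 7, RE/Ovx rat 5 or RE/Ovx rat 8 it was 0. With the muscle covariate 3 were called. Lef1, a transcription factor shared by T cells and early B cells, rose by 1.39 ± 0.32. It was the only gene called higher in the list of T and NK cells. There 1 of 22 was called higher and 1 lower, the cytotoxic granule gene Nkg7 (-0.78 ± 0.18), near the 5% and 3.06% of all tested genes. Lef1 and Nkg7 both lost their call without Sham rat 7, RE/Ovx rat 5 or RE/Ovx rat 8. Plasma cells gave 0 calls of 9 in edgeR, and DESeq2 gave 0 as well; Irf4 stood at 0.96 ± 0.37 (adjusted p = 0.135).

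Of 19 megakaryocyte genes 5 were lower and 0 higher, with a median of -0.46. F2rl2, a thrombin receptor, was at 30.7, 39.9 and 29 CPM in Sham and at 19.6, 14.2 and 18 CPM in RE/Ovx rats (-0.94 ± 0.20, adjusted p = 0.0228), and Gp6, the collagen receptor of platelets, fell by 0.63 ± 0.14. These calls numbered 0 without RE/Ovx rat 5 or rat 8 and 2 without Sham rat 7, without Sham rat 8 or with the muscle covariate. Of 26 erythroid genes, 25 had a negative fold change (median -0.27) and 0 were called in edgeR. DESeq2 called 2 lower. Macrophages and monocytes gave 1 call of 20, with a median of 0.08. Eosinophils, basophils and mast cells gave 1 higher, the mast cell protease Cpa3 (1.11 ± 0.30), and 1 lower, the IgE receptor chain Ms4a2 (-0.70 ± 0.14), of 18. Early progenitors gave 1 and 1 of 14, Hlf and Prom1. The single calls of these last lists stand against 5% of all tested genes called higher and 3.06% called lower. They were not made without RE/Ovx rat 5 or rat 8.

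Skeletal muscle genes gave 0 calls of 29 in edgeR and 1 lower by DESeq2, although all 29 had a negative fold change (median -0.76). Myh4, the myosin of the fastest fibres, was at 1327, 857 and 423 CPM in Sham and at 503, 711 and 427 CPM in RE/Ovx rats (-0.67 ± 0.34, adjusted p = 0.254). Sham rat 8 lay just below every exercised rat, and Sham rats 12 and 7 lay above them. Without Sham rat 8, 21 of the 29 were called lower. In the NE/Ovx rats Myh4 stood at 1546, 1340 and 1224 CPM.

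Sugar metabolism fell in part. Of 21 glycolysis genes 6 were lower and 0 higher, with a median of -0.37. Hk2, which traps glucose in the cell, was at 106, 85 and 91.6 CPM in Sham and at 70.4, 61.4 and 63.6 CPM in RE/Ovx rats (-0.53 ± 0.10, adjusted p = 0.0169). Ldha, which makes lactate, and Pfkfb4, which sets the pace of the pathway, fell by 0.54 ± 0.11 and 0.72 ± 0.15. Gapdh, often taken as a reference gene, was at 460, 559 and 304 CPM in Sham and at 312, 343 and 314 CPM in RE/Ovx rats (-0.45 ± 0.19, adjusted p = 0.174). Sham rat 8, lowest of the Sham rats in the sum of muscle genes, was also lowest in Gapdh. With the muscle covariate 3 glycolysis genes were called and the median was -0.18, and without RE/Ovx rat 5 or rat 8 it was 0 genes. Of 35 genes of oxidative phosphorylation 1 was lower, Cox5a (-0.58 ± 0.14), and of 25 genes of heme and iron 1 was lower, transferrin (Tf, -0.70 ± 0.14). These single calls are near the 3.06% of all tested genes called lower. Cox5a and Tf were not called without Sham rat 7, RE/Ovx rat 5 or RE/Ovx rat 8. Of 40 cell cycle genes 39 had a negative fold change (median -0.21), and the single call was Ccnd1, which was higher.

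Inflammatory and immune signals showed no common direction. Of 22 cytokine genes 2 were higher, the receptors Lifr (0.59 ± 0.13) and Osmr (0.96 ± 0.23), and 4 lower, led by the IL-1 antagonist Il1rn, at 67.9, 63.1 and 65.4 CPM in Sham and at 44.1, 27.4 and 31.2 CPM in RE/Ovx rats (-0.93 ± 0.16, adjusted p = 0.0148). Of 36 chemokine genes 2 were higher, among them Ccl9 (2.40 ± 0.45), and Cxcr2 was lower. Complement gave 2 higher, C4b (1.09 ± 0.29) and the fat cell product Cfd (0.78 ± 0.18), and 2 lower, C3 (-0.63 ± 0.13) and the receptor C5ar1 (-0.60 ± 0.15), of 23. In the fits without RE/Ovx rat 5 or rat 8, Cxcr2 was the only one of these cytokine, chemokine and complement genes called. Interferon response genes gave 0 calls of 31 by edgeR and by DESeq2, with a median of -0.03.

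A pair of clock-linked transcription factors passed the threshold, and their values lay apart from those of the unexercised rats as well. Hlf, which activates genes from D-box elements, was at 7.25, 4.88 and 5.24 CPM in Sham, at 4.19, 4.63 and 5.33 CPM in NE/Ovx and at 10.5, 10.1 and 11.2 CPM in RE/Ovx rats (0.87 ± 0.19 against Sham, adjusted p = 0.0268). Nfil3, which represses from the same elements, was at 27.8, 29.1 and 25.4 CPM, at 27.5, 28.5 and 27.5 CPM and at 19, 17.3 and 17.7 CPM (-0.61 ± 0.10 against Sham, adjusted p = 0.0128). In each gene all 3 exercised rats lay outside the range of the other 6, as they did in Tmem38b. The share of all tested genes with this separation was not counted, so it does not mark these genes as unusual. Of the 20 clock genes tested these were the only calls. Neither passed the adjusted threshold against NE/Ovx, and without RE/Ovx rat 5 or rat 8 neither was called against Sham. Hlf also lost its call without Sham rat 7 or Sham rat 8 and with the muscle covariate. It was not called either by edgeR on the 2 groups or by limma on log2(FPKM + 0.1). The hour of day at which each rat was killed is not stated.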

How the data were processed

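RNA-seq of the left tibias of 9 rats was analysed from the values the authors deposited for each rat. The deposited counts, whole numbers of reads for each gene, served for the main tests, and the FPKM values deposited beside them served for alternatives only. HISAT2, StringTie, Bowtie2, Trimmomatic and DESeq are the tools in the processing notes of the submitters, who give no versions, and the build is Rnor_6.0. Libraries were made from ribosome-depleted total RNA with a stranded kit. No source used here says whether the counting took account of the strand, so overlapping and antisense genes may share reads, as may near-identical copies. Genes are named as in the deposited files.

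Counts were fitted in R 4.3.3 with edgeR 4.0.16, in 1 model of all 9 libraries with the group as its only term, TMM factors and edgeR's filter on low counts. The quasi-likelihood test of RE/Ovx minus Sham was adjusted by Benjamini-Hochberg over the 14520 genes kept, with a threshold of 0.05. CPM were computed with the TMM-adjusted library size, and the level of a list in a rat is the mean over its genes of centred log2 CPM with a prior count of 2. A gene is separate when the 3 values of each group do not overlap. With 3 rats a group, an exact permutation test of 1 gene could not fall below 0.1, so none was used. Rats of a group are separate animals.

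The comparison and 42 lists of cell type and pathway genes were chosen with earlier results of these data known, and 6 further lists, the promoter words and the muscle covariate after the values were seen. Of the entries of all lists, counting a gene once in each list, 1105 were tested, 73 had low counts, 12 had no count and 18 were not found under the listed names. Lists share genes, such as Col11a2 in those of cartilage and collagen chains, so their counts are not independent. Named genes are the 15 higher and 15 lower with the largest fold change among called genes with separate groups and a mean log2 CPM no lower than 1, passing over names that are database identifiers. To these come up to 4 members of each list that passed, taken by smallest p, or 2 members if none did, the genes the study measured by RT-qPCR, and Plin1, Igfbp2, Greb1, Col1a1 and Myh4. Some results for single genes are left out here. Other list members are given by value only and were chosen after their values were seen.

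Promoters come from RefSeq, assembly GRCr8, and were matched by symbol, as 300 bases a gene. Of 22589 listed genes, 17139 symbols are in that assembly's table and 2080 more match as synonyms. No coordinates of Rnor_6.0 were used.

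Alternatives were DESeq2 1.42.0 on the 9 libraries or on the 2 groups, library totals, median-of-ratios factors, edgeR on the 2 groups, no filter on low counts, a minimum of 10 counts per library, limma 3.58.1 on log2 of FPKM plus 1 or 0.1 and with FPKM of at least 1 in 3 libraries, and leaving out each of the 6 rats. Where a rat was left out, the smaller group has 2 rats and the spread is still shared by all groups. Scripts were tested on simulated data. Figures were drawn with Python 3.11.15 and matplotlib 3.10.9.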

Additional observations from a re-analysis of the deposited data

How the results depend on the processing

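The direction of the named differences held under nearly all alternatives, whereas the number of calls depended on the tool and on single rats. Against 1171 calls (726 higher, 445 lower), DESeq2 on all 9 libraries gave 1927 (1150 and 777), and it called 1169 of the 1171 with the same sign. EdgeR on the 2 groups gave 559 (352 and 207), limma on log2(FPKM + 1) gave 465 (342 and 123), limma on log2(FPKM + 0.1) 592 (436 and 156), and library totals lowered the calls below Sham to 289. With a minimum FPKM of 1 in 3 libraries, limma called 252 lower, and at the study's thresholds limma gave 784 lower with that minimum and 794 without it, against 1332. The added fit with a skeletal muscle covariate gave 702 (438 and 264). Leaving out 1 rat gave from 103 (without RE/Ovx rat 5 or rat 8) to 1749 calls (without RE/Ovx rat 3), from 67 to 1205 higher and from 24 to 544 lower. The causes were not tested. A smaller group also has fewer samples. Of the 126 named genes that were called, 35 kept their call whichever rat was left out, 68 under every other alternative and 32 under all. The named genes that changed sign, neither of them called, were Acp5 and Fos. Acp5, at -0.06 with all rats, ranged from -0.364 (without RE/Ovx rat 5) to 0.129 (without Sham rat 8) and was also positive without RE/Ovx rat 3 (0.0639) or rat 8 (0.0598). Fos, at 0.04, ranged from -0.166 (without RE/Ovx rat 8) to 0.187 (without RE/Ovx rat 5) and was -0.127 without Sham rat 8. No paired analysis was possible because the groups share only the replicate number 8. With 3 rats a group, a missed threshold does not show that a gene was alike in both groups.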

Other observations

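A further 6 lists were written after the values were seen, and their counts are a description. Of 9 genes of the NADPH oxidase, the complex with which phagocytes make superoxide, 4 were lower and 0 higher by edgeR's adjusted p, against 3.06% of all genes lower and 5% higher. Ncf4, a cytosolic subunit, was at 109, 92.3 and 112 CPM in Sham rats 12, 7 and 8 and at 66.9, 54.8 and 68.4 CPM in RE/Ovx rats 3, 5 and 8, without overlap (-0.72 ± 0.13, adjusted p = 0.017). Ncf1 and the membrane subunit Cybb stood at -0.71 and -0.59. The pentose phosphate pathway, which supplies the NADPH that the oxidase uses, had 4 of 8 genes lower and 0 higher, among them Pgd at -0.55, Rpia at -0.49 and Rpe at -0.44. Rpia was at 143, 149 and 151 CPM in Sham and at 115, 98.9 and 102 CPM in RE/Ovx rats. None of these 8 calls was made without RE/Ovx rat 5 or without rat 8.

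The route to leukotriene B4, a lipid that draws neutrophils, had 4 of 8 genes lower and 0 higher. Alox5ap, which hands arachidonic acid to the lipoxygenase, was at 88.7, 87.9 and 80.9 CPM in Sham and at 52.8, 41.2 and 45 CPM in RE/Ovx rats (-0.89 ± 0.13, edgeR adjusted p = 0.00907), and was called whichever rat was left out. The lipoxygenase Alox5 stood at -0.69, the hydrolase Lta4h at -0.59 and the receptor Ltb4r at -0.90. The 4 calls became 1 without RE/Ovx rat 5 and 2 without rat 8. Of 16 myeloid lectins and TREM receptors 9 were lower, among them Clec12a (-0.77), Clec5a (-0.91), Clec7a, the receptor for fungal glucan (-0.81), and Trem3 (-0.79), and without RE/Ovx rat 5 or rat 8 it was 2. Of 22 glycogen genes 6 were lower, including the glycogen primer Gyg1 (-0.70), the branching enzyme Gbe1 (-0.42) and the phosphorylase Pygl (-0.50), while Gys2 was higher. The list also holds genes of muscle: lower calls numbered 1 without RE/Ovx rat 5, 0 without rat 8 and 11 without Sham rat 8, and the median moved from -0.39 to -0.18 with the muscle covariate. Among 18 transcription factors of the B lineage 10 were higher and 0 lower. Several of them, Ebf1 included, also stand in the B cell list, so the counts of these lists are not independent. Ebf1, which commits cells to that lineage, was at 81.1, 124 and 196 CPM in Sham and at 262, 291 and 339 CPM in RE/Ovx rats (1.15 ± 0.30, edgeR adjusted p = 0.0441), and Foxo1 rose by 1.04. Leaving out Sham rat 12, 7 or 8 changed that count to 3, 2 or 13, and leaving out RE/Ovx rat 5 or rat 8 changed it to 0.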
